A study of Glycine max with 13 samples.

Results

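Sites occupied by few of the repressor-type auxin response factors (ARFs) of maize on soybean DNA were described here: positions with binding events of exactly 2 or 3 clade B ARFs and of no clade A ARF. The sites were chosen by the presence and absence of events in the deposited peak lists. Events of all 12 peak lists were pooled and chained into sites when consecutive event positions lay within 100 bp, which gave 71895 sites. Of these, 8558 (11.9%) met the rule and are called member sites below: 5483 carried 2 clade B ARFs (pairs) and 3075 carried 3 (triples). The rule reads the same peak calls that are described below, so the make-up and strength of the member sites are given as description, without tests.

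The assay was DAP-seq: sheared genomic DNA, free of chromatin, is mixed with a tagged transcription factor produced in vitro, and the fragments it retains are read by sequencing. Each of 12 maize ARFs was run once on genomic DNA from soybean leaf: ARF7, ARF10, ARF14, ARF25, ARF36 and ARF39 of clade B, and ARF4, ARF16, ARF18, ARF27, ARF29 and ARF34 of clade A. A library of the GST-HALO tag without an ARF was not analysed here. The labels do not give the clades, which were taken from the published maize ARF phylogeny. With 1 library per ARF, no event has a replicate check.

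ARFs bind DNA and turn auxin signals into changes of transcription. They recognise short elements with the core TGTC, and many bind as dimers to a pair of such elements. Clade A proteins carry a glutamine-rich middle region and are generally described as activators. Clade B proteins lack it, are generally described as repressors, and several of them recruit corepressors of the TOPLESS family. Members of one clade have similar DNA-binding domains, and the member sites are some of the sites at which their peak lists differ.

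The rule set the member sites between neighbouring kinds. Without any clade A ARF there were 15077 sites of 1 clade B ARF, 5483 of 2, 3075 of 3, 2054 of 4, 1407 of 5 and 712 of 6. A further 3315 sites had 2 or 3 clade B ARFs together with at least 1 clade A ARF. Clade A was absent from 83.4% of the 18083 sites of 1 clade B ARF, 74.4% of the 7367 sites of 2, 68.2% of the 4506 sites of 3 and 50.7% of the 8225 sites of 4 to 6. The member sites are thus 22.4% of the 38181 sites with any clade B event. The mirror set, 2 or 3 clade A ARFs without clade B, held 11595 sites, 76.2% of the 15219 sites with 2 or 3 clade A ARFs.

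Few member sites lay near the limit of the merging distance. A clade A event lay within 200 bp of 227 member sites (2.65%), within 500 bp of 589 (6.88%) and within 2000 bp of 1698 (19.8%). Of the 6137 member sites without ARF10, 1.06% had an ARF10 event within 200 bp, and of the 2173 without ARF36, 2.44% had an ARF36 event within that distance. Calls of the missing ARF just outside the site were thus few. The lists give no read totals, so depth is unknown and an absent event can lie under the threshold of its list.

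ARF36, which has the longest clade B list, was the commonest member. It had an event at 6385 of the 8558 member sites, 74.6% (Wilson 95% interval 73.7% to 75.5%), and was present at 66.0% of the pairs and 89.95% of the triples. ARF25 was found at 4689 (54.8%), ARF7 at 4643 (54.3%), ARF10 at 2421 (28.3%), ARF14 at 1754 (20.5%) and ARF39 at 299 (3.49%). The order follows the number of sites of each list, 22002 for ARF36, 20316 for ARF7, 18537 for ARF25, 12054 for ARF10, 9289 for ARF14 and 4121 for ARF39, except that ARF25 and ARF7 change places. At 95.7% of the member sites ARF36, ARF25 or both were present, and 364 sites had neither.

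The lists differed in how much of them lay at member sites. The share was 29.0% of the ARF36 sites, 25.3% for ARF25, 22.9% for ARF7, 20.1% for ARF10, 18.9% for ARF14 and 7.26% for ARF39. The short ARF39 and ARF14 lists had 36.0% and 36.9% of their sites at sites of 4 to 6 clade B ARFs without clade A. Their remaining sites, apart from those without any other ARF, also carried clade A. ARF7 had 32.3% of its sites alone, without any other ARF, against 1.19% for ARF39 and 1.92% for ARF14.

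The pairs were concentrated on a few combinations of ARFs. Of the 15 possible pairs, 14 occurred, and 3 of them, ARF7 with ARF36 (1866 sites), ARF25 with ARF36 (1072) and ARF10 with ARF25 (920), made up 70.4% of all pairs. ARF7 with ARF25 followed with 555 sites, ARF14 with ARF36 with 375, ARF10 with ARF36 with 224, ARF7 with ARF14 with 212 and ARF7 with ARF10 with 108. The remaining pairs were ARF36 with ARF39 (82), ARF14 with ARF25 (34), ARF14 with ARF39 (14), ARF25 with ARF39 (9), ARF7 with ARF39 (8) and ARF10 with ARF14 (4). No site held ARF10 and ARF39 alone.

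The order was compared with list length. For each pair an expected number was computed as if each list were spread over the 71895 sites independently of the others, and the 15 values were scaled to the 5483 pairs. Observed numbers exceeded these for 4 of the 15 pairs. ARF10 with ARF25 stood highest, with 920 sites against 383.6 expected, a ratio of 2.40. ARF7 with ARF36 followed at 1.96 (1866 against 952), then ARF25 with ARF36 at 1.28 (1072 against 839.7). ARF14 with ARF36 was close to its expected number, with 375 sites against 358.6.

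The lowest ratios belonged to pairs with ARF10 or ARF39. ARF10 with ARF39 had 0 sites against 67.1 expected, ARF10 with ARF14 had 4 against 163.8 (ratio 0.024), and ARF7 with ARF39 had 8 against 131.3 (0.061). ARF25 with ARF39 had 9 against 115.8 (0.078). ARF14 with ARF25 reached 0.12 of its expected number, and ARF7 with ARF10 reached 0.25. When the expectation was fitted to keep the number of pairs of each ARF, ARF36 with ARF39 rose to 1.81, ARF14 with ARF39 to 2.78 and ARF7 with ARF14 to 1.33. Under that expectation ARF10 with ARF25 stood at 3.03, ARF7 with ARF36 at 1.30 and ARF25 with ARF36 at 0.81, and ARF10 with ARF14 stayed at 0.065.

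**Figure D1:**
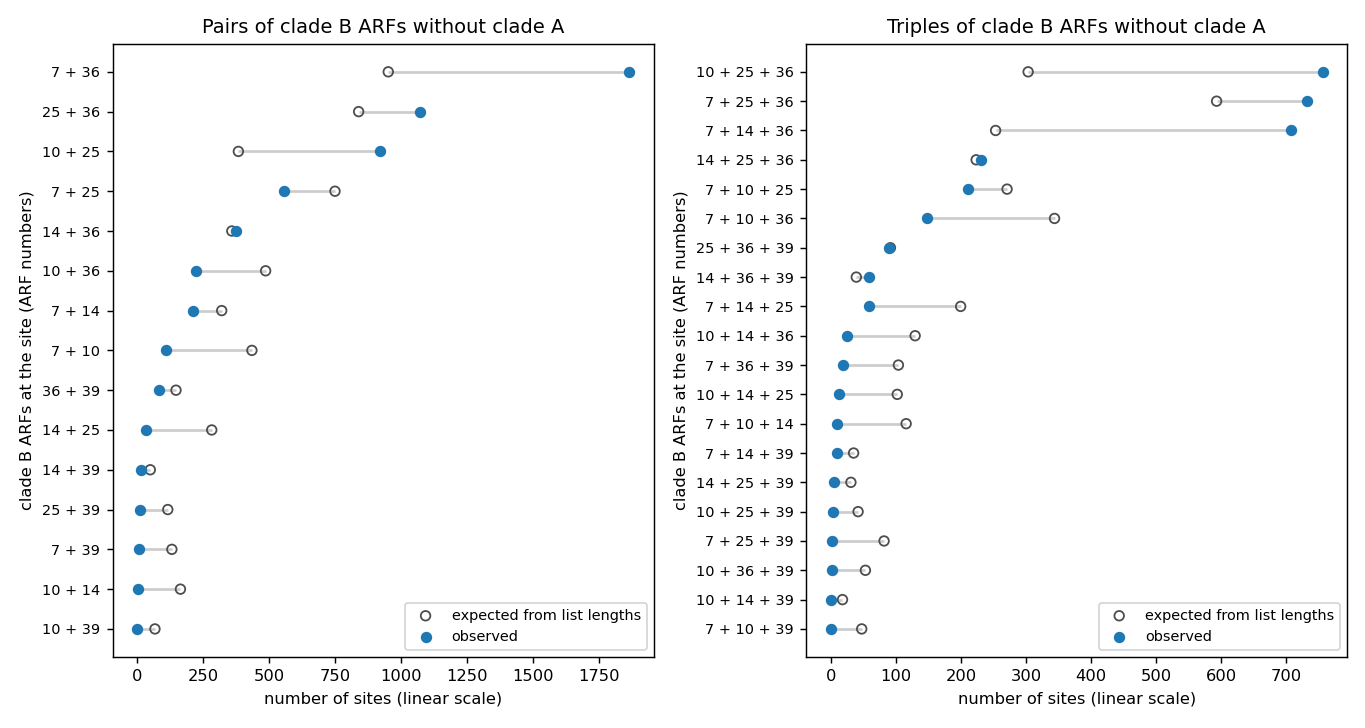
Number of sites for each of the 15 pairs (left) and 20 triples (right) of clade B ARFs without clade A, observed (filled) and expected from the lengths of the lists (open), with counts on a linear axis. The pairs ARF7 with ARF36 and ARF10 with ARF25 (1866 and 920 sites) and the triples 10 + 25 + 36 and 7 + 14 + 36 (756 and 707 sites) lie farthest to the right of their open circles.

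The triples were built around the same partners. Of the 20 possible triples, 18 occurred, and 3 made up 71.4% of the 3075 triple sites: ARF10, ARF25 and ARF36 with 756 sites, ARF7, ARF25 and ARF36 with 732, and ARF7, ARF14 and ARF36 with 707. Against expectation from list length, ARF7, ARF14 and ARF36 stood highest with a ratio of 2.79 (707 against 253.1). ARF10, ARF25 and ARF36 followed with 2.49 (756 against 303.1), and ARF14, ARF36 and ARF39 with 1.51 (59 against 39.1). The long lists ARF7, ARF25 and ARF36 together had a lower ratio, 1.23, with 592.7 sites expected. This excess depended on the expectation: with the number of triples of each ARF kept, the ratio was 0.80. Under that expectation ARF14, ARF25 and ARF36 also turned, from 1.03 to 0.55, while ARF7, ARF10 and ARF25 rose from 0.78 to 2.14, ARF7, ARF14 and ARF39 from 0.26 to 1.91, and ARF25, ARF36 and ARF39 from 0.97 to 1.51. ARF7, ARF14 and ARF36 stood at 2.14 and ARF10, ARF25 and ARF36 at 1.71.

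Other triples were almost empty. ARF7, ARF10 and ARF39 had 0 sites against 47.4 expected, and ARF10, ARF14 and ARF39 had 0 against 17.9. ARF10, ARF36 and ARF39 had 1 against 53.1, ARF7, ARF25 and ARF39 had 2 against 81.7, and ARF10, ARF25 and ARF39 had 3 against 41.8. ARF7, ARF10 and ARF14 had 9 against 115.6. ARF39 was in 5 of these 6 triples and ARF10 in 5.

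Partner shares show the same division from the side of each ARF. Of the 2421 member sites of ARF10, 78.6% also carried ARF25 (Wilson 95% interval 76.9% to 80.2%), 47.7% carried ARF36, 19.7% ARF7, 2.07% ARF14 and 0.165% ARF39. Of the 1754 member sites of ARF14, 79.6% carried ARF36 and 56.7% ARF7, but only 19.4% carried ARF25 and 2.85% ARF10. ARF7 was found with ARF36 at 74.8% of its member sites, and ARF39 at 83.3%. Over all member sites ARF36 was at 74.6%, so the ARF7 value was near that share. The shares over all member sites were 54.8% for ARF25, 54.3% for ARF7, 28.3% for ARF10 and 20.5% for ARF14. ARF10 and ARF25 occurred together at 1902 member sites (22.2%), and 3350 (39.1%) carried neither of them. These shares are description: both partners come from the calls that chose the sites. The rule also leaves out sites of 4 to 6 clade B ARFs. ARF10, ARF14 and ARF39 occur together at the 712 sites of all 6 clade B ARFs without clade A.

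**Figure D2:**
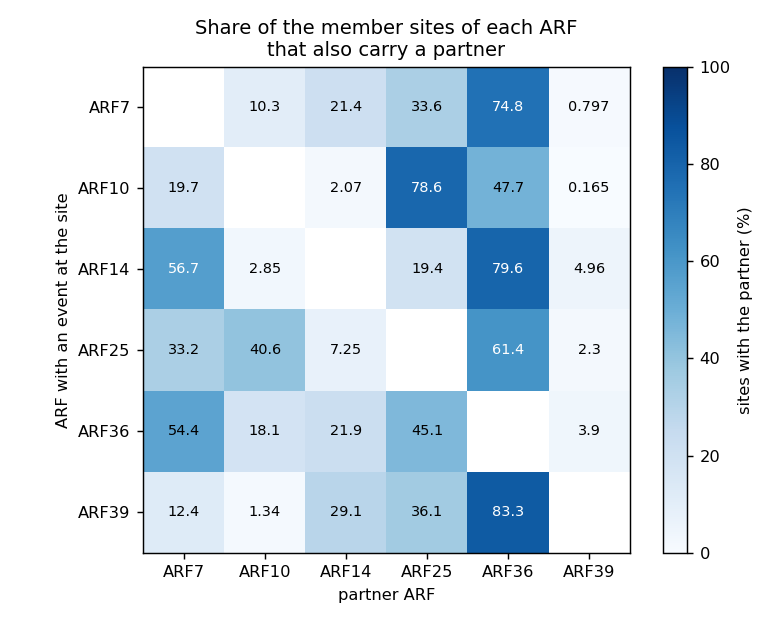
Share of the member sites of each clade B ARF (rows) that also carry a given partner (columns), in percent, as printed in the cells. ARF10 goes mostly with ARF25 (78.6%), ARF14 and ARF39 mostly with ARF36 (79.6% and 83.3%), and few member sites of ARF10 carry ARF14 or ARF39. Over all member sites ARF36 is at 74.6% and ARF25 at 54.8%. Sites of 4 to 6 clade B ARFs are outside the rule and not counted.

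The make-up was different where a clade A ARF was also present. ARF10 was at 52.3% of the 3315 sites with 2 or 3 clade B ARFs and at least 1 clade A ARF (Wilson 95% interval 50.6% to 54.0%), against 28.3% (27.3% to 29.3%) of the member sites. ARF7 went the other way, with 39.3% against 54.3%. ARF25 was at 65.6% against 54.8%, ARF36 at 66.5% against 74.6%, ARF14 at 14.9% against 20.5% and ARF39 at 4.65% against 3.49%. Counted per ARF, 41.7% of the 4155 sites of ARF10 with 2 or 3 clade B ARFs had clade A as well, against 21.9% for ARF7, 21.9% for ARF14, 25.7% for ARF36, 31.7% for ARF25 and 34.0% for ARF39.

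Single combinations showed this spread directly. Of all sites whose clade B ARFs were ARF10 and ARF36 alone, 50.4% had a clade A ARF, and of those with ARF10 and ARF25 alone 39.6%. The share was 15.3% for ARF7 with ARF36, 15.5% for ARF7 with ARF14 and 22.5% for ARF25 with ARF36. The order of the 15 pairs by frequency was much the same with and without clade A, with a Spearman rho of 0.96 across pairs, which share lists and are not independent. ARF10 with ARF25 was the commonest pair with clade A, at 32.0% of 1884 sites, and only the third without it, at 16.8%.

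Strength is the value that the authors' event caller gave each event, and it has no common scale between lists. It was therefore ranked within each list as a percentile, with the strongest event of an ARF at a site standing for that site. The median percentile at member sites was 46.3 for ARF7, 43.3 for ARF25, 41.4 for ARF36, 41.002 for ARF10, 31.0 for ARF14 and 28.5 for ARF39. The mean of these medians was 38.6 ± 7.13 (SD, n = 6 lists), and each of the 6 medians lay below 50. The ARF7 median passed 50 when ARF14, ARF25 or ARF36 was left out (50.5, 50.5 and 54.3). In deposited strength the medians were 35 for ARF7, 34 for ARF25, 32.1 for ARF36, 29 for ARF10, 29.8 for ARF14 and 29 for ARF39, and the lowest member events had 18 to 19.1.

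The rank rose with the number of clade B ARFs at the site. The medians of the 6 lists averaged 34.4 ± 7.86 (SD, n = 6 lists) at pairs, 42.1 ± 8.27 at triples, 50.5 ± 11.1 at sites of 4 and 60.9 ± 10.7 at sites of 4 to 6. Triples were above pairs in all 6 lists: 52.5 against 42.9 for ARF7, 41.002 against 37.2 for ARF10, 33.9 against 23.7 for ARF14, 45.6 against 40.0 for ARF25, 48.2 against 36.9 for ARF36 and 31.3 against 25.6 for ARF39. Sites of 1 clade B ARF averaged 29.7 ± 9.24 and lay below pairs in 5 lists. In the ARF39 list the 49 sites of ARF39 alone had a median of 43.6. At the 3315 sites with clade A the mean of medians was 39.4 ± 5.34, within 1 SD of the member sites.

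**Figure D3:**
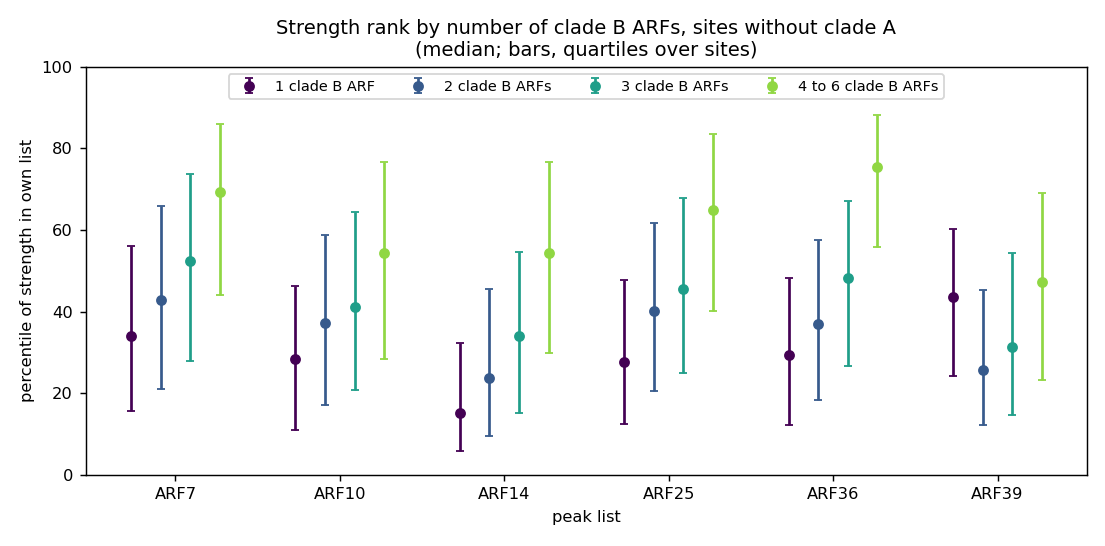
Percentile of strength within each clade B list for sites without clade A that carry 1, 2, 3 or 4 to 6 clade B ARFs. Points are medians and bars the quartiles over sites. The medians rise from 1 to 4 to 6 ARFs in 5 lists, and in the ARF39 list the 49 sites of ARF39 alone have a median of 43.6, above its pairs and triples.

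Strong member events were rare. An event at or above the 90th percentile of its list was present at 492 member sites (5.75%), and all ARFs of the site reached it at 25 (0.292%). By list, 5.13% of the ARF7 member events were that strong, 3.35% for ARF25, 3.06% for ARF10, 2.34% for ARF39, 1.35% for ARF36 and 0.684% for ARF14. The share was 4.38% (ARF39) to 20.9% (ARF36) at sites of 4 to 6 clade B ARFs without clade A. At sites of 1 it was 10.2% for ARF39, which is 5 of 49 sites. In the other lists it was 0.157% (ARF36) to 1.83% (ARF7) there, below the member share of each list. At sites of 2 or 3 with clade A it was 0.862% (ARF36) to 9.74% (ARF39). It was higher there than at member sites for ARF10, ARF14 and ARF39, and lower for ARF7, ARF25 and ARF36. At 3489 member sites (40.8%) every event was below the middle of its list. The site counts of this paragraph were not made for other kinds of sites. The −log10 q was under 6, close to the lowest deposited value, for 17.8% (ARF7) to 44.9% (ARF10) of the member events of a list, against 4.69% (ARF36) to 25.9% (ARF10) at sites of 4 to 6 clade B ARFs without clade A.

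Within a pair the partners were unequal. At the 375 sites of ARF14 with ARF36 the median percentile was 26.0 for ARF14 and 48.2 for ARF36, and ARF14 ranked higher at 20% of them. At the 212 sites of ARF7 with ARF14 it was 59.0 for ARF7 and 21.3 for ARF14. ARF10 with ARF25 had 41.002 and 54.0, and ARF36 with ARF39 had 45.2 and 24.4. ARF25 with ARF36 was balanced, at 35.1 and 35.6. In these 4 unequal pairs the ARF with the longer list had the higher rank, whereas at ARF7 with ARF36 the shorter list, ARF7, ranked higher (44.0 against 35.6).

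Pair sites with both events at or above the 90th percentile were mostly those of ARF10 with ARF25, which had 13 among its 920 sites. The other 3 of the 16 were 1 of ARF14 with ARF36 and 2 of ARF14 with ARF39. There were 0 among the 1866 sites of ARF7 with ARF36 and 0 among the 1072 of ARF25 with ARF36. The ranks of both partners went together across sites with a Spearman rho of 0.63 for ARF10 with ARF25, 0.64 for ARF14 with ARF36, 0.54 for ARF25 with ARF36, 0.45 for ARF7 with ARF36 and 0.36 for ARF7 with ARF25. These are descriptions over sites of single libraries, which are not independent replicates.

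Events of a member site lay close together. The span from the first to the last event had a median of 14 bp at pairs (quartiles 5 and 31) and 24 bp at triples (11 and 44), and at 267 member sites all events fell on the same base. The distance between the partners' events had a median of 3 bp for ARF36 with ARF39, 6 bp for ARF10 with ARF36, 7 bp for ARF14 with ARF36, 12 bp for ARF25 with ARF36 and 13 bp for ARF10 with ARF25. It was 15 bp for ARF7 with ARF25, 17 bp for ARF7 with ARF36, 17 bp for ARF7 with ARF14 and 26 bp for ARF7 with ARF10. Pairs with ARF7 therefore had the most widely placed events among pairs of at least 82 sites. At 127 member sites (1.48%) an ARF had more than 1 event.

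Positions below are 1-based. No source used here gives the genome build, so neither genes nor sequences at the named sites were analysed here. For each pair the site with the highest mean percentile is named. The strongest of all pair sites lay at 28222325 to 28222332 of chromosome 14, with a strength of 596.2 for ARF10 and 1532.7 for ARF25 (percentiles 99.90 and 99.97). The nearest clade A event was 1354 bp away. It is the only member site whose events all reached the 99th percentile. The strongest ARF14 with ARF39 site, at 2268652 to 2268658 of chromosome 7, had strengths of 294.1 and 369.6, but lay 154 bp from a site of all 6 clade A and all 6 clade B ARFs.

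The leading ARF7 with ARF36 site also bordered a crowded one. It lay at 31512714 to 31512730 of chromosome 5, with strengths of 125.2 and 78.3, at 107 bp from a site of 5 clade A and 6 clade B ARFs. ARF14 with ARF36 led at 40641277 to 40641286 of chromosome 3 (112.9 and 137), 2567 bp from the next site. ARF10 with ARF36 led at 47939733 to 47939735 of chromosome 2 (47 and 132), and ARF25 with ARF36 at 49361044 to 49361047 of chromosome 9 (76 for each). These 3 sites had no other site within 2 kb.

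Leading sites of the remaining pairs were chosen the same way. ARF25 with ARF39 reached strengths of 66.5 and 166 at 42753663 to 42753665 of chromosome 2, and ARF7 with ARF25 reached 110.9 and 58 at 9191645 to 9191667 of chromosome 8, 123 bp from a site of 3 clade B ARFs. ARF7 with ARF14 led at 1670328 to 1670332 of chromosome 18 (161 and 57). ARF7 with ARF10 led at 31690916 to 31690971 of chromosome 11 (119 and 37.3). ARF36 with ARF39 led at 2570336 to 2570346 of chromosome 7 (76 and 58). The rare pairs ARF14 with ARF25, ARF7 with ARF39 and ARF10 with ARF14 led at 6838173 to 6838183 of chromosome 1 (48 and 57), 12525710 to 12525732 of chromosome 10 (59 and 31) and 898768 to 898789 of chromosome 4 (29.5 for ARF14 and 25 for ARF10). The last of these lay 193 bp from a site of all 6 clade B ARFs.

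Among triples the highest mean percentile was 99.6, at 37751025 to 37751166 of chromosome 8. ARF7 had a strength of 1537.2 there, ARF36 1065.4 and ARF39 434.2, and the nearest clade A event was 4071 bp away. Next came ARF10, ARF25 and ARF36 at 31812247 to 31812262 of chromosome 8, with 116, 225 and 175, at a −log10 q of only 6.07 for ARF10. The third was ARF7, ARF10 and ARF36 at 41312130 to 41312146 of the same chromosome, with 129.2, 193 and 265.1. The fourth was ARF7, ARF25 and ARF39 at 8990737 to 8990754 of chromosome 15, with 188.7, 188.3 and 300.8. Sites of both clades lay 454 to 647 bp from each of these last 3.

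The other leading triples belonged mostly to common combinations. ARF10, ARF25 and ARF36 supplied 3 more, at 46700505 to 46700508 of chromosome 6 (142, 238 and 105), 42191791 to 42191820 of chromosome 13 (67.9, 126 and 116) and 39134844 to 39134849 of chromosome 13 (75, 162 and 89). ARF7, ARF14 and ARF36 supplied 2, at 8882546 to 8882560 of chromosome 12 (201, 86 and 127) and 37425450 to 37425465 of chromosome 16 (120, 121 and 93). The rare triple ARF14, ARF25 and ARF39, with 5 sites in all, had 1 among the 10, at 33905489 to 33905493 of chromosome 3 (237.7, 144.7 and 255.9).

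Member sites were found on all 20 chromosomes in similar proportion. They numbered 344 on chromosome 11 to 529 on chromosome 18, which is 7.72 per Mb of covered span (chromosome 15) to 10.1 per Mb (chromosome 20). Their share of all sites of a chromosome ran from 11.0% on chromosome 17 (Wilson 95% interval 9.93% to 12.1%) to 13.2% on chromosome 20 (12.2% to 14.4%). Each of the 14 combinations with over 100 sites occurred on all 20 chromosomes.

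Along the chromosomes the member sites as a whole were spread evenly. When the span covered by events was cut into 10 equal bins, each bin held 9.32% to 10.8% of them. Between 25% and 75% of the span, called the middle here, lay 49.7% of them (Wilson 95% interval 48.7% to 50.8%), against 47.5% of all 71895 sites. In soybean the middle of a chromosome is generally rich in repeats and poor in genes, though no annotation was used here.

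Some combinations departed from the even spread. ARF7 with ARF36 lay in the middle at 56.4% of its 1866 sites (54.2% to 58.7%), and ARF10 with ARF25 at 40.4% of its 920 sites (37.3% to 43.6%). ARF7 with ARF36 had the higher share on 17 of the 20 chromosomes, an equal one on chromosome 15 and a lower one on chromosomes 13 and 14. Between 50% and 60% of the span lay 257 sites of ARF7 with ARF36, 3 to 24 per chromosome. Member sites with ARF10 and ARF25, alone or with another clade B ARF, had 41.4% in the middle, and those with neither had 54.8% (53.1% to 56.5%). The 299 sites with ARF39 had the highest share of any ARF, 62.5% (56.9% to 67.8%). The lean of both pairs was also present at sites of 1 clade B ARF without clade A. There the share was 55.3% for ARF7, 54.1% for ARF36, 44.4% for ARF10 and 42.4% for ARF25. ARF10 with ARF25 and ARF7 with ARF36 had the highest ratios of observed to expected pair sites (2.40 and 1.96). The differences between them were not tested. ARF25 with ARF36, more frequent than ARF10 with ARF25, had 50.1% of its 1072 sites in the middle.

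**Figure D4:**
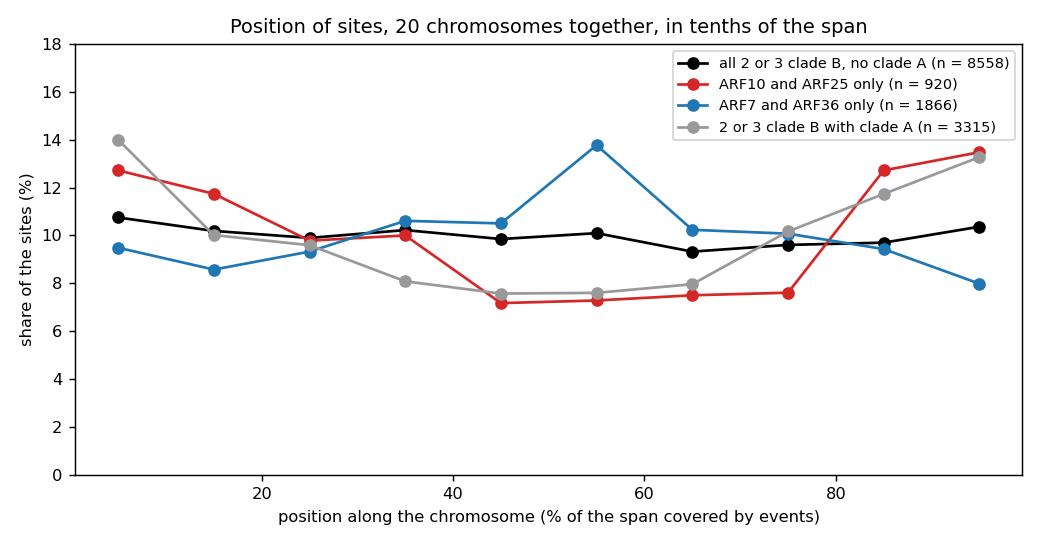
Share of sites in each of 10 equal bins of the span covered by events, 20 chromosomes together, for all member sites, for the pairs ARF10 with ARF25 and ARF7 with ARF36, and for sites of 2 or 3 clade B ARFs with clade A. The member sites stay between 9.32% and 10.8%, ARF7 with ARF36 peaks at 13.8% between 50% and 60%, and the other 2 sets are highest at the ends.

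Position was not used by the rule, so it was compared with other kinds of sites within each clade B list. The test was a two-sided exact permutation test that flips the signs of the 6 within-list differences, with p-values adjusted by the Benjamini-Hochberg method over 6 tests. The smallest p it can give is 0.031, and the lists share sites, so these p-values are smaller than for independent lists. Against sites of the same number of clade B ARFs with clade A, member sites lay in the middle more often in 6 of 6 lists, by a mean of 9.003 ± 6.40 percentage points (SD, n = 6; exact permutation p = 0.031, adjusted 0.094). The difference did not pass the threshold after adjustment.

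By list, the share in the middle at member sites and at sites with clade A was 51.7% and 41.7% for ARF7, 42.4% and 40.7% for ARF10, and 51.7% and 47.3% for ARF14. It was 46.5% and 38.6% for ARF25, 51.9% and 42.3% for ARF36, and 62.5% and 42.2% for ARF39, which had 154 sites with clade A. ARF10 thus differed least and ARF39 most. On 19 of the 20 chromosomes the member sites had the higher share, chromosome 13 being the exception with 44.3% against 52.7%. ARF10 was commoner at sites with clade A, so the sets also differed in make-up. The cause of the difference in the middle share was not tested. After seeing the data, sites with clade A were also weighted to the same combinations, 17 in all and 2 to 12 per list. The mean difference was then 8.71 ± 7.67 percentage points (unadjusted exact permutation p = 0.031). By list it was 1.92 points for ARF10 and 1.602 for ARF14. In the ARF7, ARF25 and ARF36 lists it was 8.19 (ARF25) to 9.31 (ARF7). ARF39 had 22.7 points, over 2 combinations with only 22 and 21 sites with clade A. Each of the 10 combinations with at least 100 sites of both kinds was in the middle more often without clade A, by 1.23 to 17.9 points. The smaller ones were mixed. ARF7 with ARF10 differed by -14.2 points, ARF14, ARF25 and ARF36 by -0.753, and ARF10, ARF14 and ARF36 by 0. ARF7 with ARF14 differed by 0.339 points, ARF14 with ARF36 by 1.79, ARF36 with ARF39 by 6.76, and ARF25, ARF36 and ARF39 by 37.5.

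The differences from other clade B sites without clade A were smaller than their spread. Against sites of at least 4 clade B ARFs without clade A the mean difference was 1.51 ± 6.58 points (exact permutation p = 0.75, adjusted 0.84), higher in 3 lists and lower in 3. Against sites of 1 clade B ARF it was -0.47 ± 6.32 points (exact permutation p = 0.84, adjusted 0.84), higher in 2 lists and lower in 4. ARF39 had the largest positive difference in both, 13.6 and 9.48 points, the latter against only 49 sites.

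**Figure D5:**
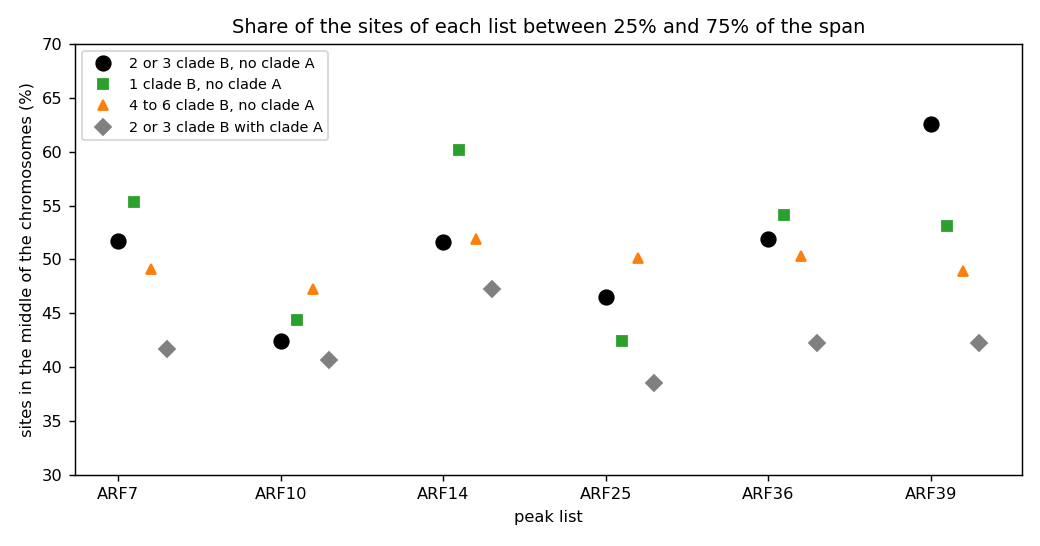
Share of the sites of each clade B list that lie between 25% and 75% of the chromosome span, for member sites, sites of 1 and of 4 to 6 clade B ARFs without clade A, and sites of 2 or 3 clade B ARFs with clade A; the axis starts at 30%. Member sites lie above the sites with clade A in 6 of 6 lists, from 42.4% against 40.7% (ARF10) to 62.5% against 42.2% (ARF39).

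Another site of any kind lay within 2 kb of 35.0% of them (Wilson 95% interval 34.0% to 36.0%), against 36.1% of all sites, and the next site was at a median of 3593 bp. In this share they were lower than sites with clade A in 6 of 6 lists, by a mean of 2.14 ± 0.991 points (two-sided exact permutation p = 0.031, adjusted 0.094). With the same combinations of clade B ARFs the mean difference was 0.59 points the other way (exact permutation p = 1). Only ARF39 was higher at member sites there, by 10.3 points over 2 combinations. The differences were -0.748 points for ARF7, -2.15 for ARF10, -1.85 for ARF14, -1.90 for ARF25 and -0.137 for ARF36. Without this weighting, the mean difference from sites of 4 or more clade B ARFs was -0.98 ± 1.29 points (exact permutation p = 0.125, adjusted 0.25). Against sites of 1 clade B ARF it was -3.86 ± 7.38 points (exact permutation p = 0.25, adjusted 0.375). None of the 3 passed the threshold after adjustment.

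Groups of member sites were small. Within 2 kb of each other lay 525 member sites (6.13%) in 253 groups, 15 of which held at least 3 and none more than 4. Of the 272 pairs of consecutive member sites within that distance, 33 (12.1%) carried the same ARFs, against 10.6% from the frequencies of the combinations. A group of 4 on chromosome 4, from 32188667 to 32192101, alternated ARF14 with ARF36 and ARF7, ARF14 and ARF36. Another, from 13077739 to 13081944 of chromosome 20, held ARF10 with ARF36 at 2 sites and triples with ARF25 and ARF36 at the others.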

How the data were processed

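The submitters' processing notes name Trimmomatic 0.36 and Bowtie2. No source used here gives the build, the caller's settings or its filters. For each event the deposited lists hold a signal value (called strength), a −log10 p-value and a −log10 q-value, the last 2 capped at 999, in windows of 201 bp centred on the event. There is 1 list per sample, with no stated scaling.

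Event positions were written 1-based and merged within 100 bp by single linkage on each chromosome. Expected numbers multiplied the odds of each list among all sites and were scaled to the observed number of pairs or triples. Wilson 95% intervals cover counting error only, because the depth is unknown. The named sites are the strongest of each pair and the 10 strongest triples. The code was checked on simulated sites. The member sites, clades, lists and tests were chosen with earlier results of these data known. Alternatives were a merging distance of 50 or 200 bp, fewer events per list, other expectations, other limits for the middle and for neighbours, and leaving out each list. For the shares in the middle and with neighbours, only clade B lists were left out. Weighting to the same combinations and a clearance of 200 bp from clade A were added after seeing the data. The work ran in Python 3.11.15 with pandas 2.3.3, numpy 2.4.6 and scipy 1.17.1, and matplotlib 3.10.9 drew the plots.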

Additional observations from a re-analysis of the deposited data

How the results depend on the processing

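Fewer events per list gave fewer sites. Keeping the upper part of each list, from its median −log10 q, left 4814 member sites (3072 pairs, 1742 triples), and with the 1106 strongest events of each list 693 (468 and 225). The mean of the median percentiles was then 68.6 and 93.8. Percentiles were still ranks in the full lists, so this rise is fixed by the removal of weak events. The share with ARF36 was 73.2% at a merging distance of 50 bp and 48.6% with 1106 events. Leaving out 1 list gave 6958 to 9275 member sites, 4629 to 5964 pairs, 2327 to 3311 triples, a share with ARF36 of 74.3% to 91.2%, 2 to 4 pairs (2 without ARF10 or ARF36) and 3 to 5 triples (3 without ARF7, ARF10, ARF14 or ARF25) above expectation, and a mean of medians of 38.2 to 42.9. No clade A event within 200 bp left 8331 member sites.

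With 1106 events per list ARF10 with ARF25 had a ratio of 4.78 and ARF7 with ARF36 one of 0.82, which ended its excess. The excess of ARF25 with ARF36 also ended (0.57), ARF7 with ARF14 rose to 2.11 and ARF36 with ARF39 to 1.61, and among triples ARF7, ARF25 and ARF36 fell to 0.69 and ARF10, ARF14 and ARF36 rose to 1.16. Without ARF10, which also redefines the sites, ARF14 with ARF36 fell to 0.82 and ARF14, ARF36 and ARF39 to 0.90. Without ARF25 the ratio of ARF10 with ARF36 was 1.26, and that of ARF10, ARF14 and ARF36 passed 1. Without ARF36 the ratio of ARF7 with ARF14 was 1.68. Triples also turned without ARF36: ARF10, ARF14 and ARF25 rose to 1.28, ARF7, ARF14 and ARF25 to 1.51, and ARF14, ARF25 and ARF39 to 1.98. In that setting ARF7, ARF10 and ARF25, and ARF7, ARF14 and ARF39, passed 1 as well. The ratio of ARF10 with ARF25 ran from 1.76 to 4.78 over all alternatives. The cause was not tested.

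The middle share against sites with clade A kept its direction under all alternatives in which it was compared. It was 9.42 points at 50 bp (adjusted exact permutation p = 0.047) and 6.93 to 11.3 points with 1 clade B list left out. The unadjusted exact permutation p can go no lower than the 0.031 of the main setting. The adjusted value was lower at 50 bp because neighbour comparisons adjusted with it had smaller p-values there. The middle share was not compared with a clade A list left out or with the 200 bp clearance. Against sites of 1 clade B ARF it turned to 0.997 points at 50 bp, 0.52 at 200 bp and 3.06 with the median −log10 q. With 1 clade B list left out it ran from -1.65 to 3.42, positive without ARF7 (1.13), ARF14 (3.42) or ARF25 (1.07). Against sites of at least 4 it turned to -1.30 with 1106 events and ran from 0.041 to 5.90 with 1 clade B list left out.

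The neighbour share within 2 kb depended on the settings. At 50 bp, where split sites count as neighbours, it was 2.85 points against sites of at least 4, -10.7 against sites of 1 and -2.12 against sites with clade A (adjusted exact permutation p = 0.047 each). At 200 bp it turned to 1.18 against sites of 1. With 1106 events it turned to 0.80 and 1.82 against sites of at least 4 and of 1. Within 10 kb it turned to 0.084, 0.37 and 1.16 for the 3 comparisons. In the same combinations it turned to 0.59 against sites with clade A, positive in the ARF39 list only. With 1 clade B list left out it ran from -1.58 to -0.53 against at least 4 and from -4.21 to -1.70 against 1. Against sites with clade A it ran from -2.71 to 0.48, turning without ARF25. Replicate libraries could not be paired, because each ARF has 1 library. The tests paired kinds of sites within each list. Since depth is unknown, an ARF missing from a site may only have been missed.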
